A study of Mus musculus with 9 samples.

Results

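Clade B serpins are the intracellular branch of the serine protease inhibitors. The 10 genes described here are Serpinb1a, Serpinb2, Serpinb5, Serpinb6a, Serpinb6b, Serpinb8, Serpinb9, Serpinb9b, Serpinb9e and Serpinb11, found by symbol among the 55450 Ensembl genes of the count table. The set was chosen by the genes' levels in the 3 genotypes of these same libraries, so what follows describes those levels. Members were part of the fit over all genes and are counted against its thresholds, but those counts rest on the values that chose the set and are no test of it. The mouse annotation holds 28 clade B genes in all, 18 of them outside the set.

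A serpin presents a flexible loop to its target protease, and cleavage of that loop traps the enzyme in a dead complex. Clade B serpins lack a classical signal peptide and mostly stay in the cytoplasm or nucleus, where they are known for guarding a cell against proteases that leak from granules or lysosomes or that other cells deliver. Not all of them inhibit: Serpinb5, known as maspin, is made by mammary epithelium and does not form the inhibitory complex. Rodents carry several close copies of genes that are single in humans.

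The libraries were bulk RNA-seq of mammary cells from adult nulliparous mice, sorted by flow cytometry for EYFP. There were 9 libraries, 3 in each group. Control mice were lsl-EYFP;K8CreERT2, the second group carried LATS1/2f/f, floxed alleles of both LATS kinases, on top of that genotype, and the last group carried Sox9f/f as well as LATS1/2f/f. All groups, controls included, carried the EYFP reporter and the tamoxifen-inducible Cre and received 2 mg of tamoxifen on each of 5 days, with glands taken 7 days after the last dose. The Cre is driven by the keratin 8 promoter, so recombination is limited to keratin 8-expressing luminal cells, and EYFP marks those cells and their progeny whatever they become later. Libraries held between 44167762 and 61967651 counted read pairs. Values below are normalised counts, scaled between libraries by edgeR's TMM factors, and where a sentence lists 3 values for a group they are replicates 1, 2 and 3. The labels do not say that replicates are separate animals, so the spread between them may be partly technical.

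The targeted genes were read first, since they check the labels. Lats1 counted 5672, 5929 and 5940 in control, 2090, 1923 and 2336 in the LATS1/2-KO libraries and 2058, 1844 and 1709 in the LATS1/2-Sox9-KO libraries, without overlap with control (log2 fold change −1.47, SE 0.114, adjusted p = 7.07e-06 for LATS1/2-KO against control, edgeR's quasi-likelihood test, adjusted by Benjamini and Hochberg's method). Lats2 did not fall: it averaged 1041 ± 177 in control, 1471 ± 236 and 1592 ± 359 in the other groups (SD, n = 3). Sox9 averaged 21598 in control, 9715 in LATS1/2-KO and 7343 in LATS1/2-Sox9-KO, and the difference between the deletion groups did not pass the test (log2 fold change −0.40, SE 0.193, adjusted p = 0.25 by edgeR with Benjamini-Hochberg adjustment). Whole-gene counts cannot show whether single floxed exons are gone. Because Lats2 and Sox9 do not follow the labels, the groups are called below the libraries labelled LATS1/2-KO and labelled LATS1/2-Sox9-KO. All 14 luminal markers of the sorted cells passed the filter, none was at 0, and Krt18 was the most abundant. Of these markers 7 were past the thresholds given below as lower than control with the LATS1/2-KO label and 10 with the LATS1/2-Sox9-KO label, Esr1, Pgr, Foxa1, Gata3, Prlr and Ltf in both, and Krt8 and Krt18 were higher with the latter. Pgr counted 17143, 20895 and 30018 in control and 43.6, 15.9 and 44.6 with the LATS1/2-Sox9-KO label.

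Of the 10 genes, 8 passed the filter on low counts, and Serpinb9e and Serpinb11 did not. Among the 8, 6 were past the thresholds (more than 1 log2 unit and adjusted p at most 0.05) as higher with the LATS1/2-KO label than in control, against 17.1% of all 19357 genes tested. Against control, the libraries labelled LATS1/2-Sox9-KO had 7 higher, against 17.8% of all genes. Between the deletion groups 4 were higher with the Sox9 label, against 1.55% of all genes, and 2 were without replicate 2 or 3 of either deletion group, when Serpinb2 and Serpinb8 no longer passed. None was lower in any of these comparisons. Serpinb2 and Serpinb9b, with 4 and 0 reads in control, were kept by the filter only through the deletion groups, where they are high, so their places in the counts against control follow from that choice. DESeq2, which also gave values for Serpinb9e and Serpinb11, put 6, 8 and 6 of the 10 past the same thresholds as higher, against 14.2%, 14.5% and 2.49% of the genes it tested. Serpinb9e had reads only with the LATS1/2-Sox9-KO label (4, 6 and 38), so any place of it in these DESeq2 counts follows from that group. Since the set was chosen with these values known, the counts describe the set. The median log2 fold change of the 8 was 2.87, 3.72 and 1.24 in those comparisons, beside 0.04, 0.01 and −0.02 over all genes tested. Bulk libraries cannot tell a larger share of expressing cells from more RNA per cell.

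**Figure D1:**
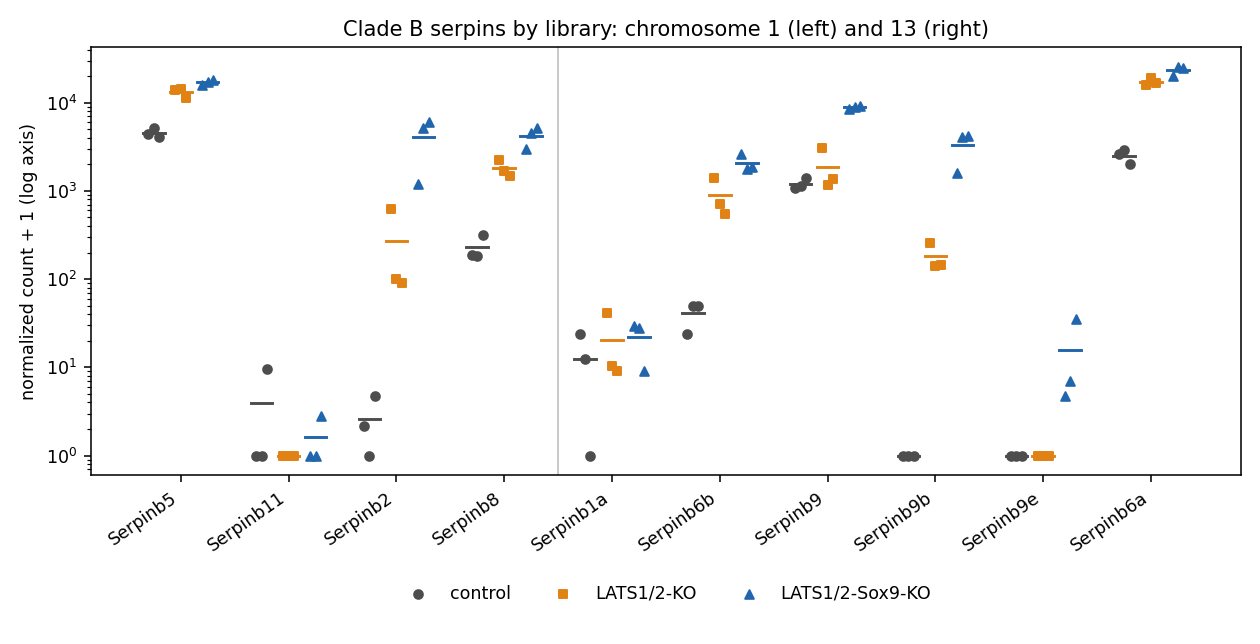
Normalised count plus 1 (log axis) of each of the 10 genes in each library, with chromosome 1 genes to the left of the line and chromosome 13 genes to the right; each point is a library and each bar the group mean. Serpinb9b and Serpinb9e sit on the floor in control, and Serpinb9 separates the libraries labelled LATS1/2-Sox9-KO from both other groups.

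The genes lie in 2 clusters that hold every clade B gene of the annotation. Chromosome 1 carries 12 over 749.3 kb (chr1:106861173-107610484, GRCm38), with Serpinb5, Serpinb11, Serpinb2 and Serpinb8 from the set in that order. Chromosome 13 carries 16 over 1160.7 kb (chr13:32842092-34002794), with Serpinb1a, Serpinb6b, Serpinb9, Serpinb9b, Serpinb9e and Serpinb6a from the set.

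Several members are near copies, which bears on how far a count belongs to one gene. Serpinb9 and Serpinb9b share 85.27% of coding bases, with a longest identical run of 62 bases, and Serpinb9e shares 95.31% with Serpinb9g, outside the set. The first 60 coding bases of the Serpinb9 copies (GENCODE transcripts, GRCm38) are shown because unique reads must tell these genes apart; capitals mark bases that differ from Serpinb9, 4 in Serpinb9b and 5 in Serpinb9e.
Serpinb9: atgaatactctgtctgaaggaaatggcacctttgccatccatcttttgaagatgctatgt
Serpinb9b: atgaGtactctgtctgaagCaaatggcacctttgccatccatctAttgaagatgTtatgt
Serpinb9e: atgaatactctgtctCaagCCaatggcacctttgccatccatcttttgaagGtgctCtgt
Over whole transcripts, 0.38% of the 50-base windows of Serpinb9 and 5.62% of those of Serpinb9b occurred in another annotated gene, most of the latter in Gm36099 on the opposite strand. Serpinb9e had 28.44% of its windows in other genes, and Serpinb6a had 13.06%, most of them in the antisense gene 1110046J04Rik. Serpinb2, Serpinb5 and Serpinb11 had none. Gm36099 reached at most 5 counts and 1110046J04Rik at most 84 in any library. Over all annotated exons, however, Serpinb2 shares 291 bases with Serpinb10 on the same strand, and 13.36% of the Serpinb10 windows occurred in Serpinb2. Serpinb10 reached at most 9 counts.

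The promoters of the members were searched for letters that the choice of the set did not use. The letters TGANTCA, a loosened form of the AP-1 motif TGAGTCA, read the same on either strand and occurred within 250 bases before the start of all 4 chromosome 1 members. They occurred in none of the 5 chromosome 13 members with a promoter sequence, and in 6.75% of 32851 mouse promoter windows of that length. The stricter letters TGAGTCA, or TGACTCA on the other strand, which these overlap, were found in Serpinb8 alone and in 4.46% of all windows. The RefSeq table (GRCm38.p6) matched 9 of the 10 genes, Serpinb1a being the one without an entry. The TEAD letters GGAATG, searched on both strands, were found in 1 member only, at the distal start of Serpinb6a (12.6% of all windows), and the SOX letters ACAATG in none (10.7%). A match is a run of letters, not a measured binding site. The windows of the 3 expressed chromosome 1 members are printed 5′ to 3′ with the TGANTCA letters in capitals, followed by that of Serpinb9b, which holds none.
Serpinb5 (chr1:106860925-106861174, plus strand): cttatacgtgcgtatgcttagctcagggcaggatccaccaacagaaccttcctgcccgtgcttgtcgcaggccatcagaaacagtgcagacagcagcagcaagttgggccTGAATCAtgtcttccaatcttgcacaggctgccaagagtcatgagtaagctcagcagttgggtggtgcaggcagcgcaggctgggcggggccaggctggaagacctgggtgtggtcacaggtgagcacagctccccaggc
Serpinb2 (chr1:107511173-107511422, plus strand): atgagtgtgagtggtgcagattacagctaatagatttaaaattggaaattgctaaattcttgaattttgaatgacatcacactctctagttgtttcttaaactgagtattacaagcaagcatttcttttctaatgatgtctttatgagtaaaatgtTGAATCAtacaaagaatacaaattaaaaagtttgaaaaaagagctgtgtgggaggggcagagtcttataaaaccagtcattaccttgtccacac
Serpinb8 (chr1:107589756-107590005, plus strand): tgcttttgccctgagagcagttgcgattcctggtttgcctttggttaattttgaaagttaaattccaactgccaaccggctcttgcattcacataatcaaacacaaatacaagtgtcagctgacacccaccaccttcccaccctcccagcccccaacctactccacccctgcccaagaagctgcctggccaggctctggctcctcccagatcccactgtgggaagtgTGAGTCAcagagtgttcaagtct
Serpinb9b (chr13:33027164-33027413, plus strand): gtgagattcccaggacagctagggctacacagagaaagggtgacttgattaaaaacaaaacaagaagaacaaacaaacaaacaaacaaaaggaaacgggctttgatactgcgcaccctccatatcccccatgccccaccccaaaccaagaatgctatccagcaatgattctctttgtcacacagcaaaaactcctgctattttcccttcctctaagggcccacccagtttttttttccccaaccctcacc
The first of the letters lay 140 bases before the start in Serpinb5, 94 in Serpinb2 and 23 in Serpinb8.

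Serpinb5 (ENSMUSG00000067006) had, with Serpinb6a, the highest mean levels per kb of exon among clade B genes in every group. It counted 4439, 5214 and 4082 in control, 13847, 14434 and 11426 in the libraries labelled LATS1/2-KO, and 15687, 17261 and 18094 in those labelled LATS1/2-Sox9-KO. Each group lay wholly above the one before it. The log2 fold changes were 1.53 (SE 0.131) and 1.89 (SE 0.133) against control and 0.36 (SE 0.128) between the deletion groups.

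Serpinb6a (ENSMUSG00000060147), an inhibitor of the granule protease cathepsin G, followed the same order. Its counts were 2607, 2923 and 2003 in control, 15825, 19051 and 16576 with the LATS1/2-KO label, and 20022, 25506 and 25026 with the LATS1/2-Sox9-KO label. The groups did not overlap, and most of the difference was already present without the Sox9 alleles, at 2.77 log2 units (SE 0.166) over control against a further 0.46 (SE 0.156). Its exons overlap those of 3 genes on the opposite strand, 1110046J04Rik, Nqo2 and Ripk1. The study's methods describe counting on the same strand, but the kit named in the labels does not mark strand, so it is not known here whether reads from these overlaps were kept apart. In the same group order, the group means of 1110046J04Rik were 14.2, 39.4 and 62.7, those of Nqo2 1175, 765 and 890, and those of Ripk1 4972, 3640 and 3930. Of these 3 genes 1110046J04Rik rose with both labels (log2 fold changes 1.47 and 2.14, adjusted p = 0.0121 and 0.0014, edgeR with Benjamini-Hochberg adjustment). Their part in the Serpinb6a counts was not tested.

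Serpinb6b (ENSMUSG00000042842) was low in control and differed by a larger factor. It counted 23.2, 48.8 and 48.5, then 1407, 702 and 553, then 2629, 1762 and 1870, in the same group order. No group overlapped another. The log2 fold changes were 4.46 (SE 0.427) and 5.70 (SE 0.446) against control and 1.23 (SE 0.355) between the deletion groups.

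Serpinb8 (ENSMUSG00000026315), which can inhibit the convertase furin, counted 189, 184 and 316 in control. Its counts were 2219, 1676 and 1488 in the libraries labelled LATS1/2-KO and 2961, 4552 and 5222 in those labelled LATS1/2-Sox9-KO. The groups did not overlap, at log2 fold changes of 2.97 (SE 0.287), 4.21 (SE 0.302) and 1.24 (SE 0.265).

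Serpinb2 (ENSMUSG00000062345), or plasminogen activator inhibitor 2, was close to absent in control, with 1.16, 0 and 3.73 normalised counts from 4 reads in all. It reached 618, 98.3 and 90.3 in the libraries labelled LATS1/2-KO and 1195, 5137 and 6022 in those labelled LATS1/2-Sox9-KO. Every library of a later group was above every library of an earlier one, but the values spread widely inside both deletion groups. From summed counts the libraries labelled LATS1/2-KO were 162-fold above control (exact 95% counting interval 62.9 to 595) and those labelled LATS1/2-Sox9-KO 2620-fold (1020 to 9600), intervals that cover counting error only. Replicate 1 gave 616 of the 831 reads with the LATS1/2-KO label. The step between the deletion groups was 3.94 log2 units (SE 0.83), the largest standard error among the members that passed the thresholds there. The fitted log2 fold change over control rests on few reads: with the LATS1/2-KO label it was 7.30, but 5.80 without that library and 8.57 without control replicate 3, and with the LATS1/2-Sox9-KO label it lay between 10.67 and 12.54 over the alternatives. Without LATS1/2-KO replicate 1 the step between the deletion groups was 5.45.

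Serpinb9 (ENSMUSG00000045827), the inhibitor of the cytotoxic protease granzyme B, behaved unlike the genes above. Control libraries counted 1075, 1131 and 1391, and the libraries labelled LATS1/2-KO 3055, 1165 and 1355. These groups overlapped, and only replicate 1 stood above control. The libraries labelled LATS1/2-Sox9-KO counted 8513, 9003 and 9085, all above every other library and within a narrow range. The log2 fold changes were 0.63 (SE 0.307) for LATS1/2-KO against control, 2.89 (SE 0.327) for LATS1/2-Sox9-KO against control and 2.26 (SE 0.318) between the deletion groups.

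Serpinb9b (ENSMUSG00000021403), the near copy of Serpinb9, had no read in any control library. It counted 255, 141 and 145 with the LATS1/2-KO label and 1599, 4108 and 4242 with the LATS1/2-Sox9-KO label, so that the groups did not overlap. Against a floor of 3 counts per library in control, it was at least 50.9-fold higher in the former and at least 937-fold higher in the latter. The step between the deletion groups was 4.20 log2 units (SE 0.441).

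The remaining members were scarce. Serpinb1a (ENSMUSG00000044734), an inhibitor of neutrophil elastase, counted 23.2, 11.3 and 0 in control, 40.1, 9.32 and 8.21 with the LATS1/2-KO label and 28.8, 26.9 and 8.20 with the LATS1/2-Sox9-KO label, and all groups overlapped. Serpinb9e (ENSMUSG00000062342) had reads only in the libraries labelled LATS1/2-Sox9-KO, 4, 6 and 38 of them, and it shares more of its sequence with other genes than any other member. Serpinb11 (ENSMUSG00000026327) had 7 reads in control replicate 3 and 2 in LATS1/2-Sox9-KO replicate 3, and none elsewhere.

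**Figure D2:**
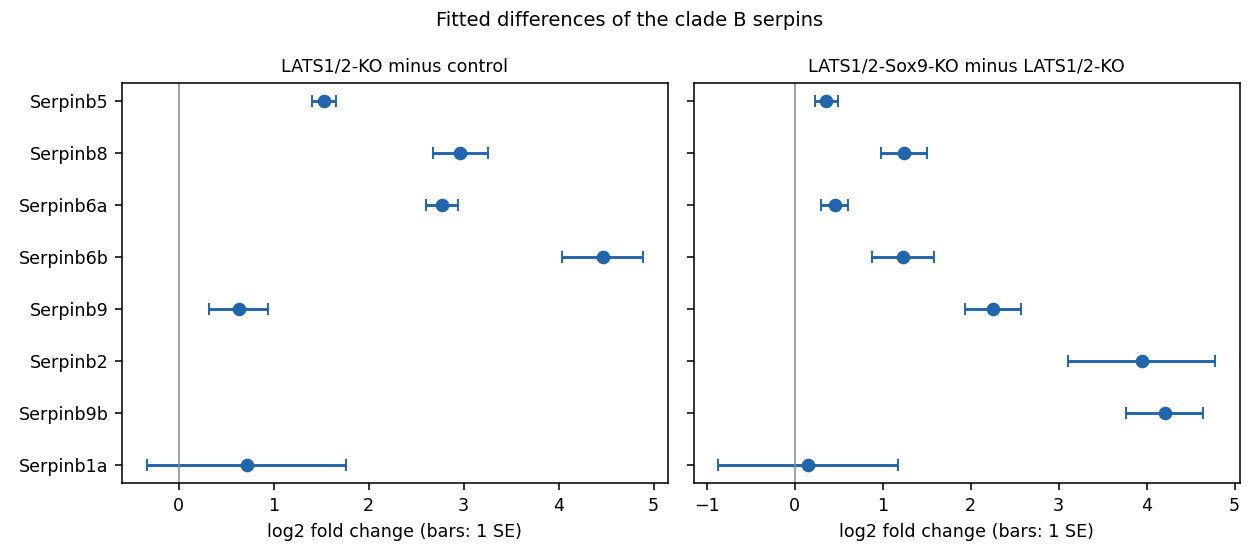
Fitted log2 fold changes (points) with 1 standard error (bars) of the 8 members that passed the filter; the left panel leaves out Serpinb2 and Serpinb9b, which had 4 and 0 reads in control. On the left, LATS1/2-KO against control, the change was largest for Serpinb6b (4.46) among the members drawn; on the right, between the deletion groups, it was largest for Serpinb9b (4.20) and Serpinb2 (3.94), and smallest for Serpinb1a (0.15).

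Set side by side, the members differed in the step between the deletion groups. The 4 members past the thresholds there were Serpinb8, Serpinb9, Serpinb2 and Serpinb9b, at 1.24, 2.26, 3.94 and 4.20 log2 units. In a fit that blocked by replicate number, Serpinb2 no longer passed them. Serpinb5, Serpinb6a and Serpinb6b, at 0.36, 0.46 and 1.23, did not pass them, although their libraries did not overlap. The order control, LATS1/2-KO, LATS1/2-Sox9-KO held without any overlap of libraries for 6 members, all 8 that passed the filter except Serpinb1a and Serpinb9, and for 6.17% of all genes tested. Of the 8 that passed the filter, the libraries of the latter group lay apart above control for 7 (34.9% of all genes) and above the LATS1/2-KO libraries for 7 (14.6%), and the LATS1/2-KO libraries above control for 6 (31.3%). Serpinb9e, which did not pass the filter, also lay apart above both other groups.

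Inside the group labelled LATS1/2-Sox9-KO, replicate 1 was the lowest for Serpinb2, Serpinb9b, Serpinb8, Serpinb5, Serpinb6a, Serpinb9 and Serpinb9e and the highest for Serpinb6b and Serpinb1a. Inside the group labelled LATS1/2-KO, replicate 1 was the highest for Serpinb2, Serpinb6b, Serpinb8, Serpinb9, Serpinb9b and Serpinb1a. Markers of other cells in the sort moved with that library too: the summed level of 12 macrophage and myeloid markers, Csf1r the most abundant and Marco at 0, was 1199, 824 and 805 in control, 4845, 3448 and 2415 with the LATS1/2-KO label and 3867, 3932 and 5198 with the LATS1/2-Sox9-KO label. Csf1r alone gave 2804, 2374 and 1753 of the LATS1/2-KO sums. Of the 11 macrophage markers that passed the filter 4 were past the thresholds as higher with that label (Csf1r, Fcgr1, Tyrobp and Aif1) and 6 with the other. None was past them as lower, and Ptprc, Lyz2, Cd68 and Itgam did not pass. Fcgr1 (0, 0 and 4 reads in control), Tyrobp (22, 10 and 4) and Adgre1 (5, 1 and 16) were kept by the filter only through the deletion groups. Their places in these counts follow from that choice, that of Adgre1 in the second count alone. The Fcgr1 libraries with the LATS1/2-KO label overlapped control. The 8 fibroblast markers, led by Dcn, summed to 8486 in the same library and to 2282 and 2786 in the other two of its group, against 2366, 4216 and 9344 in control and 2365, 3129 and 6072 with the LATS1/2-Sox9-KO label, and 3 rose and 1 fell with the LATS1/2-KO label and 2 and 2 with the other. The 6 endothelial markers summed to between 244 and 772, with 1 higher and 0 lower, then 1 and 1. The fibroblast marker Lum (3, 5 and 18 reads in control) and the endothelial marker Kdr (26, 2 and 35) were likewise kept only through the deletion groups. Their places among the higher markers follow from that. Basal markers, Krt14 the most abundant, summed to 4987, 5950 and 5344 in control, 269162, 161884 and 156497 with the LATS1/2-KO label and 158473, 281782 and 387075 with the LATS1/2-Sox9-KO label. Those sums are mostly Krt14, 252969 of 269162 in LATS1/2-KO replicate 1: of the 10 basal markers 4 rose (Krt14, Krt17, Acta2 and Cnn1) and 4 fell (Trp63, Myh11, Mylk and Lgr5) with the LATS1/2-KO label, and 4 rose and 5 fell with the LATS1/2-Sox9-KO label. Squamous markers, led by Sbsn and with Sprr2d at 0, summed to 5560, 11815 and 27437, to 20979, 37648 and 19964, and to 30128, 43182 and 50288 in that group order. Of the 10 squamous markers that passed the filter 3 were past the thresholds as higher (Krt6a, Dsg3 and Sbsn) and 4 as lower (Krt1, Krt13, Ivl and Sprr1a) with the LATS1/2-KO label, and 3 and 3 with the other. Dsg3, with 1, 1 and 0 reads in control, was kept by the filter only through the deletion groups. Krt1 (41, 97 and 70 reads in control) and Krt13 (78, 112 and 142) were kept only through control. The places of these genes in the counts follow from that choice. The part of the marked cells in the serpin values was not tested. Neutrophil markers summed to between 19.7 and 58.3 and lymphoid, NK and mast cell markers to at most 72.6 in every library, with Camp, Cd3e, Ms4a1, Ncr1, Cpa3 and Mcpt4 at 0. S100a8 was the single neutrophil marker that passed the filter. With 8, 12 and 12 reads in control it was kept only through the deletion groups, so it is given as values with no test. It averaged 12.6 in control, 29.3 with the LATS1/2-KO label and 34.9 with the LATS1/2-Sox9-KO label. Cd79a, the single lymphoid one, did not pass the test. Without LATS1/2-KO replicate 1 the log2 fold change of Serpinb9 over control was 0.08, and those of Serpinb6b and Serpinb8 were 3.97 and 2.79.

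Levels of different genes were compared per kb of all annotated exon bases, 2750 for Serpinb5 and 5409 for Serpinb6a. Clade B genes summed to 2551 ± 245 normalised counts per kb in control, 9483 ± 1078 in the libraries labelled LATS1/2-KO and 17728 ± 2666 in those labelled LATS1/2-Sox9-KO (SD, n = 3), and the listed members made up 99.7%, 99.7% and 99.5% of the sum. The share of Serpinb5 was 65.1% in control, 50.7% with the LATS1/2-KO label and 35.2% with the LATS1/2-Sox9-KO label. Serpinb6a took 18.1%, 33.7% and 24.6%, and Serpinb9 took 13.6%, 5.52% and 14.5%. Serpinb2 went from 0.0292% through 1.15% to 9.35%, and Serpinb9b from 0% through 0.562% to 5.40%. The order of the leading genes depends on the length used: per kb of 1 coding transcript (2672 and 1504 bases), an alternative chosen after the data were seen, Serpinb5 took 44.9%, 27.6% and 21.7% and Serpinb6a 43.6%, 63.7% and 52.9%.

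**Figure D3:**
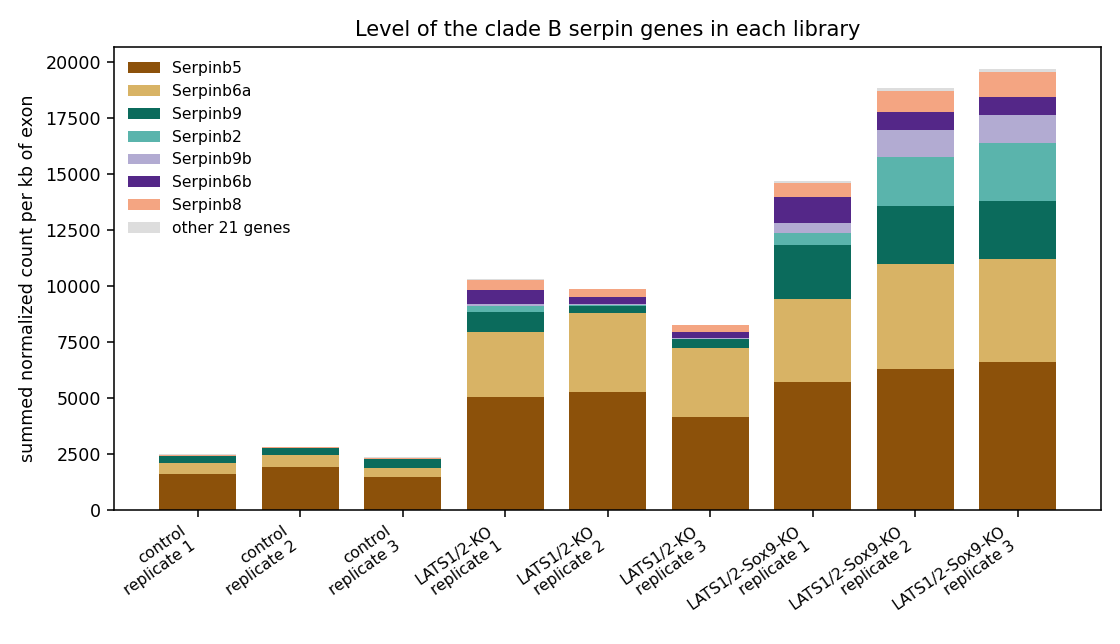
Summed normalised count per kb of exon of all 28 clade B genes in each library (stacked bars from 0), with the 7 most abundant members coloured and the other 21 genes in grey. The controls stay under 3000, and the bars grow by new colours as well as by height in the libraries labelled LATS1/2-Sox9-KO.

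Within each group the order of the levels per kb of all annotated exon bases was fixed only in part. In control Serpinb5 (1664.9) lay above Serpinb6a (464), which overlapped Serpinb9 (343), and Serpinb8 (47.9) and Serpinb6b (17.8) followed without overlap. With the LATS1/2-KO label, Serpinb5 (4813) and Serpinb6a (3171) were apart from the rest, while Serpinb9 (532), Serpinb6b (392) and Serpinb8 (374) overlapped their neighbours. With the LATS1/2-Sox9-KO label, Serpinb5 (6187) and Serpinb6a (4348) again led, and Serpinb9 (2538), Serpinb2 (1753), Serpinb9b (990) and Serpinb6b (923) each overlapped the next, down to Serpinb8 (885), which lay apart from the scarce members. Per kb of 1 coding transcript, Serpinb6a overlapped Serpinb5 in control and lay wholly above it in both deletion groups (means 11400 against 4953 and 15640 against 6368).

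The 18 clade B genes outside the set were mostly silent, with Serpinb3a to Serpinb3d, Serpinb6d and Serpinb1-ps1 at 0 in every library, and 4 passed the filter. Serpinb9c and Serpinb1b passed it only through the libraries labelled LATS1/2-Sox9-KO, so their differences are given as values with no test. Serpinb9c, another Serpinb9 copy, counted 0, 0 and 0 in control, 3.01, 1.69 and 0 with the LATS1/2-KO label and 38.1, 138 and 72.0 with the LATS1/2-Sox9-KO label. From summed counts the ratio between the deletion groups was 53.4 (95% counting interval 22.6 to 166). Serpinb1b counted 3.48, 0 and 0 in control and 26.0, 24.9 and 36.4 with the LATS1/2-Sox9-KO label, a ratio of 24.8 from summed counts (95% counting interval 8.24 to 123). Serpinb6c and Serpinb12 did not pass.

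**Figure D4:**
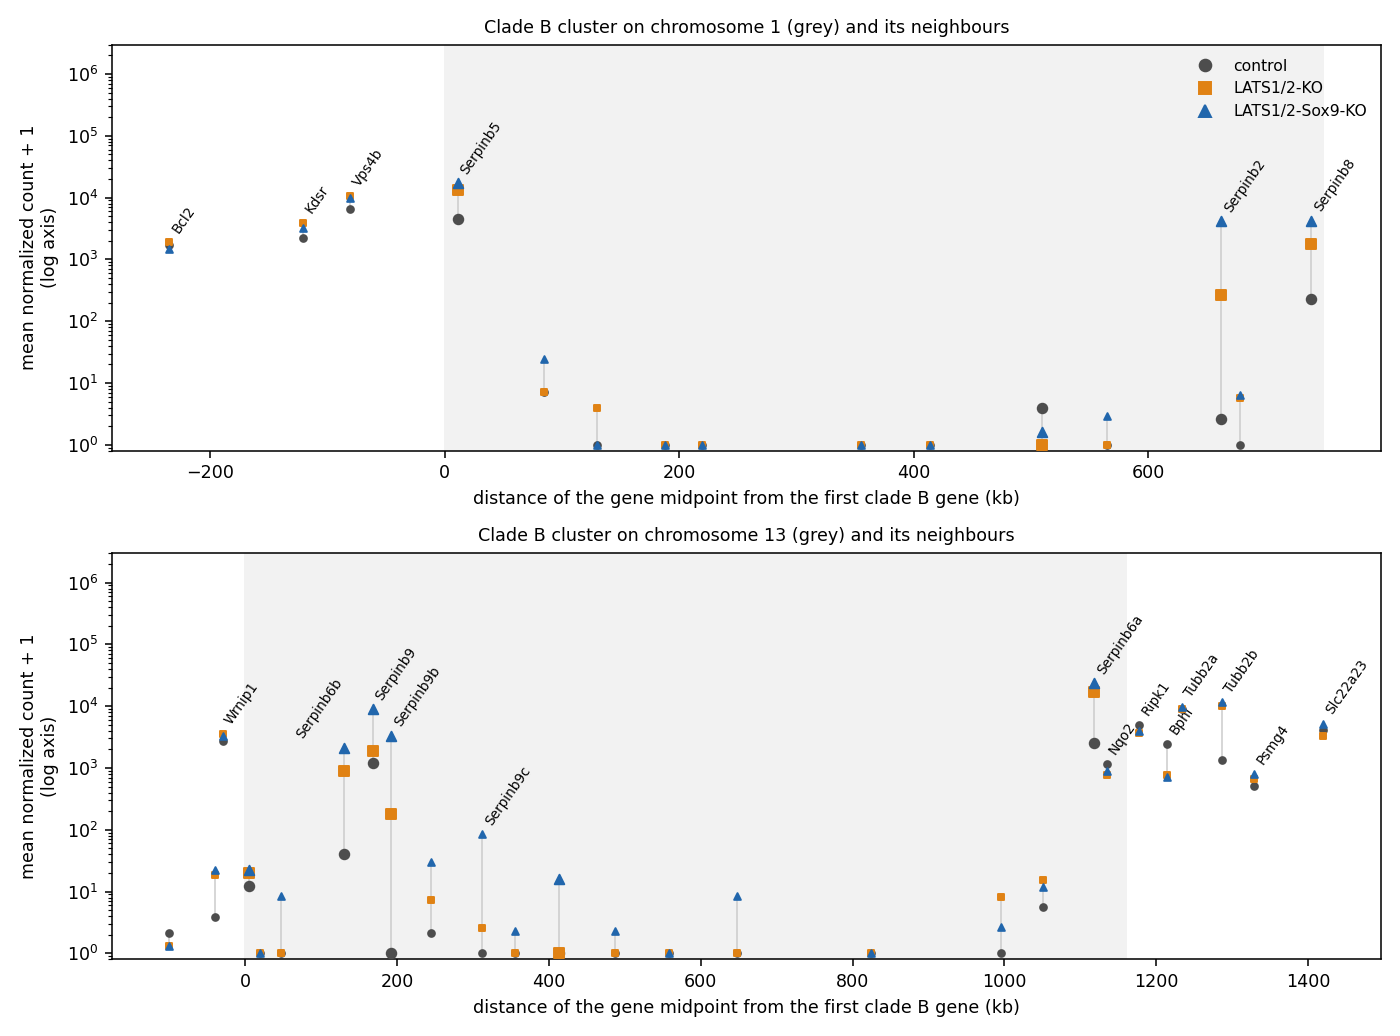
Mean normalised count plus 1 (log axis) of each clade B gene and of the annotated neighbours, against distance in kb from the first gene of its cluster (grey: the cluster; large symbols: the 10 genes). High and near-zero genes alternate inside both clusters, and the chromosome 1 neighbours differ by under 1 log2 unit between groups.

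The clusters did not move as blocks. On chromosome 1, Serpinb2 and Serpinb8 were high with the deletion labels while Serpinb10, lying between them, never passed 9 counts, and the neighbours Bcl2, Kdsr and Vps4b did not pass both thresholds. Kdsr and Vps4b were nonetheless higher with the LATS1/2-KO label, by 0.81 (adjusted p = 0.000385) and 0.69 (adjusted p = 0.000318) log2 units in edgeR with Benjamini-Hochberg adjustment, while Bcl2 differed by 0.11 (adjusted p = 0.701). On chromosome 13, Tubb2b rose (2.90 log2 units, adjusted p = 3.88e-06) and Bphl fell (−1.70, adjusted p = 3.81e-05) with the LATS1/2-KO label by edgeR with Benjamini-Hochberg adjustment. D930007J09Rik, with group means of 2.82 and 17.5, also passed, but it was kept by the filter only through the deletion groups, and Wrnip1, Nqo2, Ripk1, Tubb2a, Psmg4 and Slc22a23 did not pass. So 2 of the 9 chromosome 13 neighbours tested were higher with the LATS1/2-KO label and 1 lower, beside 17.1% and 17.5% of all genes. Between the deletion groups 0 of the 12 neighbours tested passed by edgeR or by DESeq2, and 1 had an unadjusted p under 0.05. Over all genes 1.55% were higher and 2.16% lower there by edgeR, so 0 of 12 does not set the neighbours apart.

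The enzymes that these serpins can meet were described from lists of 59 proteases, 45 of which passed the filter. In the libraries labelled LATS1/2-KO 13 were higher than control and 14 lower (17.5% of all genes were lower), with the LATS1/2-Sox9-KO label 13 and 13 (19.6% lower), and between the deletion groups 3 and 2 (2.16% lower). Plau, the urokinase that Serpinb2 inhibits, counted 993, 1339 and 2587 in control and 72431, 55740 and 80512 with the LATS1/2-KO label (log2 fold change of 5.41, SE 0.391, adjusted p = 4.92e-06, edgeR with Benjamini-Hochberg adjustment). It did not separate the deletion groups (0.40, adjusted p = 0.509), where Serpinb2 differed by 3.94. The urokinase receptor Plaur rose in both deletion groups (1.62, adjusted p = 3e-06 for LATS1/2-KO, edgeR).

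**Figure D5:**
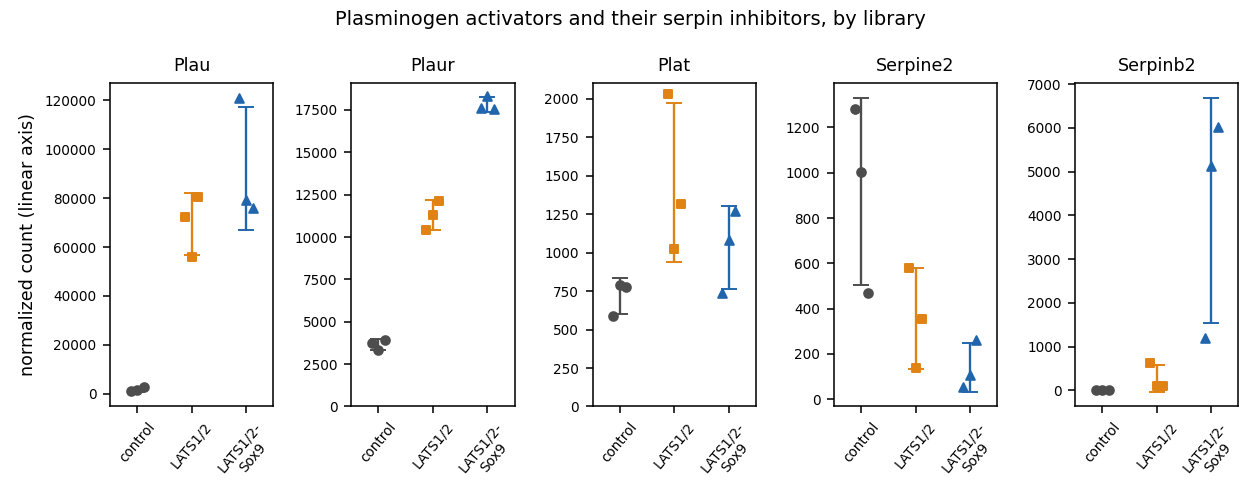
Normalised counts (linear axis) of the plasminogen activators Plau and Plat, the receptor Plaur and the inhibitors Serpine2 and Serpinb2 in each library; bars are mean ± SD of 3 libraries. Plau and Plaur are higher in both deletion groups than in control, whereas Serpinb2 is mainly high in 2 of the 3 libraries labelled LATS1/2-Sox9-KO.

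Furin, the convertase that Serpinb8 can inhibit, fell with the LATS1/2-KO label (group means 19671, 5960 and 5067, log2 fold change −1.72, adjusted p = 0.00123 against control, edgeR with Benjamini-Hochberg adjustment). Between the deletion groups, where Serpinb8 differed by 1.24, Furin differed by −0.23 (adjusted p = 0.717, edgeR) and its libraries overlapped. The granule proteases were scarce: Gzmb averaged 0, 5.68 and 2.47, Elane at most 3.68 and Ctsg 0, and these 3 did not pass the filter. Of the 9 granzymes listed 2 passed the filter. Gzmc, scarce and kept by the filter only through the deletion groups, was among the proteases counted as higher with the LATS1/2-KO label. Its libraries there overlapped those of control, and no test is given for it. Prtn3, a neutrophil protease, passed the filter and averaged 11.2, 24.1 and 10.1 without passing the test. The lysosomal cathepsins all passed the filter, and 4 of 14 were higher and 3 lower with the LATS1/2-KO label, beside 17.1% and 17.5% of all genes. Ctss rose (2.72, adjusted p = 0.00185, edgeR), as did the trypsin-like Prss23 (3.32, adjusted p = 0.000751), while Ctse fell (−5.51, adjusted p = 0.00282). Pcsk1, F2 and Klk1 were kept by the filter only through control and are given as reads with no test. Pcsk1 had 69, 74 and 120 reads in control and 1, 0 and 0 with the LATS1/2-KO label, and F2 had 173, 140 and 123 in control and 1, 5 and 2 with the LATS1/2-Sox9-KO label. Klk1, with 10, 53 and 597 reads in the control libraries, had none in either deletion group. Between the deletion groups the kallikreins Klk8 (2.33, adjusted p = 0.00729) and Klk10 (1.94, adjusted p = 0.0113) and the membrane protease Tmprss4 (2.07, adjusted p = 0.00147) were higher with the Sox9 label and Ctsf (−1.10, adjusted p = 0.0381) and Cela1 (adjusted p = 0.0391, named after its values were seen) lower, by edgeR with Benjamini-Hochberg adjustment. Tmprss4 nonetheless stayed below control with both labels (group means 1437, 88.8 and 375). Klk8 (97.5, 228 and 1146) and Klk10 (82.7, 203 and 782) lay above control with both. Of the 36 serpins of other clades 15 passed the filter. With the LATS1/2-KO label 11 were higher and 0 lower, beside 17.1% and 17.5% of all genes. With the LATS1/2-Sox9-KO label 8 were higher and 1 lower, beside 17.8% and 19.6%. Between the deletion groups 0 passed by edgeR or by DESeq2 (2 had an unadjusted p under 0.05). Over all genes 1.55% were higher and 2.16% lower there by edgeR, so 0 of 15 does not set these serpins apart. The largest fitted differences were those of Serpina3n, Serpina3i and Serpina3h, which had at most 4 reads in any control library and were kept by the filter only through the deletion groups. Serpine2 fell (−2.70, adjusted p = 0.0058, edgeR) with the LATS1/2-Sox9-KO label.

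Over the 9 libraries, the genes whose log2 normalised counts (plus 0.5) followed each member most closely, among genes averaging at least 100, were Cbwd1 and Dera for Serpinb5, Eno1b and Ran for Serpinb6a, Mybl1 and Zranb2 for Serpinb6b, Cptp and Gm21399 for Serpinb8, Selenoi and Nfu1 for Serpinb2, Impact and Procr for Serpinb9, Upk3bl and Oxsr1 for Serpinb9b, and Rspo1 and Taf7 for Serpinb1a. Pearson's r lay between 0.956 and 0.998, and differences between the 3 groups dominate such values.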

How the data were processed

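RNA was measured in 9 libraries of sorted EYFP-positive mammary cells, 3 per genotype. The count values are gene counts that the authors deposited, unnormalised, one column per library. Per the methods and labels, libraries were made with the TruSeq RNA v2 kit, aligned with STAR 2.6.0c to mm10 and counted as uniquely aligned proper pairs with featureCounts (Subread 1.6.2) over Ensembl genes without mitochondrial ones. The methods describe same-strand counting, although this kit does not mark strand, and which holds for the counts is not known here. Unique counting drops reads that fit several close copies.

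Of 55450 identifiers, 55104 matched the GENCODE GRCm38 annotation used for symbols, lengths and positions. Counts were fitted with edgeR 4.0.16 in R 4.3.3 (filterByExpr, TMM, quasi-likelihood test, all 9 libraries in one fit), and adjusted by Benjamini-Hochberg over 19357 genes. To pass, a gene needed a change of more than 1 log2 unit in either direction with adjusted p no higher than 0.05. Normalised counts divide by the TMM-scaled library size. With 3 against 3 libraries an exact permutation test of a single value cannot go below p = 0.1, so none was used. The steps were run on simulated counts with few changed genes, balanced up and down. That run does not cover as many changed genes as these libraries hold. Replicates were not duplicates of one another (chi-square per gene 17.9 or more).

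The members and gene lists were chosen with earlier results of these data known. Named genes were the 10 members, other clade B genes averaging at least 10 in a group, the 3 largest rises and falls among other serpins and proteases averaging at least 100, neighbours within 300 kb, and the 2 genes most alike to each member; Plaur, Furin, Pgr, the granule proteases and the markers named were named after values were seen. Marker lists were summed as normalised counts. Alternatives were DESeq2 1.42.0 (also with its independent filtering set to 0.05, chosen after seeing the data), the length of 1 coding transcript per gene and stricter AP-1 letters (both also chosen after seeing the data), other scaling and filters, fits of 2 groups, the replicate block, summed copies and leaving out each library.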

Additional observations from a re-analysis of the deposited data

How the results depend on the processing

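Listed members kept their direction under all alternatives that could be fitted, except Serpinb1a. Without LATS1/2-KO replicate 1 its log2 fold change against control was −0.39 (up to 1.71 without control replicate 1), and between the deletion groups it ranged from −0.21 to 1.27 as libraries were left out or settings changed. Values of −0.15, −0.10 and −0.02 came without LATS1/2-KO replicate 2, LATS1/2-Sox9-KO replicate 1 and LATS1/2-Sox9-KO replicate 2. For the comparison between the deletion groups, the count of members past the thresholds, 4, was 2 with a minimum of 10 counts in every library, where 5 members were tested and Serpinb2 and Serpinb9b were removed by the filter, and between 2 and 5 as each library was left out; without LATS1/2-KO replicate 2 or 3, or LATS1/2-Sox9-KO replicate 2 or 3, Serpinb2 and Serpinb8 no longer passed. Serpinb6b passed with DESeq2 under both filtering levels, with no filter and without LATS1/2-KO replicate 1. The genes called there, 719, became 1261 with DESeq2 (1259 with its independent filtering set to 0.05, chosen after seeing the data, where 5 members passed in place of 6) and ranged from 201 without LATS1/2-Sox9-KO replicate 2 to 1079 without LATS1/2-KO replicate 1. Called other serpins and proteases became 23 (LATS1/2-KO) and 22 (LATS1/2-Sox9-KO) against control with at least 10 counts in every library, where 39 in place of 64 were tested, and ranged from 3 to 10 between the deletion groups as libraries were left out. Summing close copies put the Serpinb9 group at 0.77 over control in LATS1/2-KO, past no threshold; the cause was not tested.

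Same-numbered replicates deviated together with correlations from −0.05 to 0.13, so the numbers were not taken to pair the samples. With the replicate block, 6521, 7087 and 601 genes were called in the 3 comparisons, and Serpinb2 no longer passed between the deletion groups (4.42). Scarce genes limit what depth allows: 3 counts in a library correspond to 2.54 to 3.73 normalised counts.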
